A study of Mus musculus with 8 samples.

Results

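Described here are 8 genes of the S100 family and Lgals3, which encodes galectin 3, in 8 mouse melanomas. All probes annotated to the 9 gene names S100a1, S100a4, S100a6, S100a8, S100a9, S100a10, S100a11, S100a13 and Lgals3 were taken, and a probe was kept where its detection p fell below 0.05 on 1 or more arrays. Each gene has 1 probe, and the 9 probes, of 25697 on the array, all met that limit. They are 9 of the 10461 genes with a detected probe. Of the 9, 8 were detected on all 8 arrays, and S100a9 was detected on 7. The members were thus chosen by gene name and selected on the deposited detection p-values. S100a9 lies on both sides of the limit, with a detection p of 0.00376 in resistant tumour 3 and 0.264 in resistant tumour 6. S100a4 came next, at 0.00125 in resistant tumour 6.

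The 7 resistant tumours (NRAS Q61R off) arose in FVB/n mice that carry the avian virus receptor TVA in melanocytes, under the Dct promoter, and floxed Ink4a/Arf alleles. Cells producing a Tet-off virus together with a TRE-NRASQ61R-IRES-Cre virus were injected under the skin of newborns, so that melanocytes gained mutant NRAS and lost both Ink4a/Arf products. Doxycycline food was given from a tumour volume of 1000 mm3 to shut NRAS Q61R and Cre off, and after initial regression these tumours became resistant to NRAS withdrawal. The single control tumour (NRAS Q61R on) shares the mouse line, the Ink4a/Arf lox/lox alleles and mutant NRAS, with NRAS left on. Its description names only NRAS-IRES-Cre, without the Tet-off and TRE elements. The labels do not state that each tumour came from its own mouse, so p-values measure the spread between these samples only. Each tumour was hybridised to 1 bead array, on which 11821 to 12851 probes were detected in the resistant tumours and 12225 in the control. With 8 arrays, precision is limited by their number. Of 12 melanocyte genes, 10 had a probe and 3 were detected: Ednrb on 8 arrays, Slc45a2 on 7 and Pmel on 2. The pigment cell genes Mitf, Tyr and Tyrp1 were detected on 0 of 8 arrays. The NRAS switch itself was not checked here.

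S100 proteins are small calcium-binding proteins with a pair of EF-hand motifs that form dimers and act by binding other proteins. Some stay in the cell and bind annexins, myosin or calcium pumps, and some are released and bind receptors such as RAGE and TLR4 on other cells. Galectin 3 binds sugars on glycoproteins, is abundant in macrophages and many tumour cells, and acts on the cell surface, in the cytoplasm and at damaged lysosomes. In the clinic, S100 staining is a routine marker of melanocytic tumours, read mainly from S100B.

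The promoters of 5 members are shown because these genes carry the main patterns below: S100a4 and Lgals3 read far lower in 1 tumour than in the others, S100a8 and S100a9 had the largest SDs of the 9 over the 6 resistant tumours other than 6, and the S100a13 window overlaps that of S100a1. The sequences are from RefSeq, build GRCm38.p6, 250 bases before to 50 after the annotated start, read 5′ to 3′ on the gene's strand. Capitals mark matches on either strand to a TATA box (TATAAA), an AP-1 motif (TGANTCA), a C/EBP motif (TTNNGNAA) or a GC box (GGGCGG). The windows are chr3:90603520-90603819 on the plus strand for S100a4, chr14:47373610-47373909 plus for Lgals3, chr3:90668821-90669120 plus for S100a8, chr3:90695672-90695971 minus for S100a9 and chr3:90514185-90514484 plus for S100a13.
S100a4: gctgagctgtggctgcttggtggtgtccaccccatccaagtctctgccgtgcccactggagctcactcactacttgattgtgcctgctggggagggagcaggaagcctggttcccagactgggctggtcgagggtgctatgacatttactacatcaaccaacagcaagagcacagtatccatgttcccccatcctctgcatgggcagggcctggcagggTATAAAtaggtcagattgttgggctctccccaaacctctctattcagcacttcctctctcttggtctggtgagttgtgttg
Lgals3: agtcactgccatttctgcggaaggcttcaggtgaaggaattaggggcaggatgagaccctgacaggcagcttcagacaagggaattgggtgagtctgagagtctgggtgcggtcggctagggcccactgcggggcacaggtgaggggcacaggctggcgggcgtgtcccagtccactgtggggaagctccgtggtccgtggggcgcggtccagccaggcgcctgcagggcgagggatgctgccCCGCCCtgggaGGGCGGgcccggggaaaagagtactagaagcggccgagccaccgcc
S100a8: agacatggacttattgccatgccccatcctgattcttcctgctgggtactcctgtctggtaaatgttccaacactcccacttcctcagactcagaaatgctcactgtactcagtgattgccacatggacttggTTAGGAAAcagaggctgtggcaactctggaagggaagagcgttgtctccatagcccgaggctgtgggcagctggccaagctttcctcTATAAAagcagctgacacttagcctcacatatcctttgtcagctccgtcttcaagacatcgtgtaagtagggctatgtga
S100a9: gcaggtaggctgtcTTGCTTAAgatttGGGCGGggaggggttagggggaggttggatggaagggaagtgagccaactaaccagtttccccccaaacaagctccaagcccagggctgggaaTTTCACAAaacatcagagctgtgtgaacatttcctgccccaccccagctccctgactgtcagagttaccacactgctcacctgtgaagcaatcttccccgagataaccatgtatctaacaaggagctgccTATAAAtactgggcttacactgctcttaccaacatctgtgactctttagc
S100a13: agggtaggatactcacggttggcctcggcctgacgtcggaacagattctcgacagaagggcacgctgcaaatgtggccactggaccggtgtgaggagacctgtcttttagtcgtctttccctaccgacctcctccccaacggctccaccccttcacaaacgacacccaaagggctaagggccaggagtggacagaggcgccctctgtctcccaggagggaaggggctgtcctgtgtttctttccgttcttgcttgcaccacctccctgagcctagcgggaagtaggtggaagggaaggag

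A TATA box match stands 31 bases before the start of S100a4 and 30 before that of S100a8, and at the annotated start of S100a9. C/EBP matches number 1 in S100a8 and 2 in S100a9, and the S100a9 window also holds 1 GC box match. In the S100a11 window, not shown, 2 AP-1 and 3 GC box matches were found. Lgals3 holds 2 GC box matches and no TATA box match. Of all 32851 promoter windows of this length, 13.6% hold a TATA box match, 7.81% an AP-1 match, 40.7% a C/EBP match and 35.7% a GC box match. No searched motif is in the S100a13 window. It shares 204 bases with the window of S100a1, which runs on the other strand, so the starts of S100a1 and S100a13 face away from each other. Of the 9 members, 8 have a window in the table. A match is a description of letters and was not tested as a site.

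The clearest pattern was in resistant tumour 6. All 9 members had their lowest reading of the 8 tumours there, in the values used throughout, which are log2 intensities after background correction and quantile normalization. For comparison, 23.4% of all 10461 genes were lowest in tumour 6, and 26.2% of the 7758 genes detected on at least 7 arrays. No member was lowest elsewhere, where the shares of all genes were 12.2%, 8.51%, 10.2%, 11.5%, 11.6% and 9.25% in resistant tumours 1 to 5 and 7, and 13.3% in the control. Tumour 6 read at least 2-fold below the control in 7 of the 9 members, against a background of 13.2% of genes, and in 0 it read at least 2-fold above, against 11.6%. Against the median of the other 6 resistant tumours, it was at least 2-fold lower in 7 members (8.12% of genes) and at least 2-fold higher in 0 (9.57% of genes). The exceptions against the control are S100a1 and S100a6, which differed from the control by -0.04 and -0.25 on the log2 scale. Since the members were chosen with these data known, no test of this pattern is given. The gap between tumour 6 and the next lowest resistant tumour, as a share of the range, exceeded Dixon's 95% value in 3 members, Lgals3, S100a4 and S100a11. That value serves here as a cut-off and not as a test. By the same cut-off, 2.23% of genes had tumour 6 apart below and 13.1% had any 1 resistant tumour apart on either side. Schwann cell and endothelial genes were set beside the members. Of all 10461 genes, 2444 were lowest and 2163 highest in tumour 6. Of 4 Schwann cell genes detected, 3 were highest there, and their summed linear level was 2196 in tumour 6, 897 to 1788 in the other 6 and 779 in the control. Of 9 endothelial genes detected, 4 were lowest there. Their sum was 4614 in tumour 6, inside the 4515 to 8265 of the other 6, and 8922 in the control. The part of these cell types in the levels of the members was not tested. In a whole tumour, fewer cells of a type and less RNA per cell cannot be told apart.

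In the other resistant tumours the members lay on both sides of the control. Tumour 1 had 0 members at least 2-fold above the control and 1 below, against 5.13% and 5.28% of genes. Tumour 2 had 2 above and 2 below, against 6.14% and 8.1% of genes. Tumour 3 had 2 above and 3 below, against 7.7% and 9.31%. S100a9 was among the members below in each of these 3 tumours. Tumour 4 had 1 above and 0 below, against 6.68% and 8.68% of genes. Tumour 5 had 1 above and 0 below, against 6.59% and 9%. Tumour 7 had 1 above and 2 below, against 5.02% and 6.51%. Across these 6 tumours each member at least 2-fold above the control was S100a1 or S100a4, and those below were S100a8, S100a9 and, in tumour 3, S100a11.

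**Figure D1:**
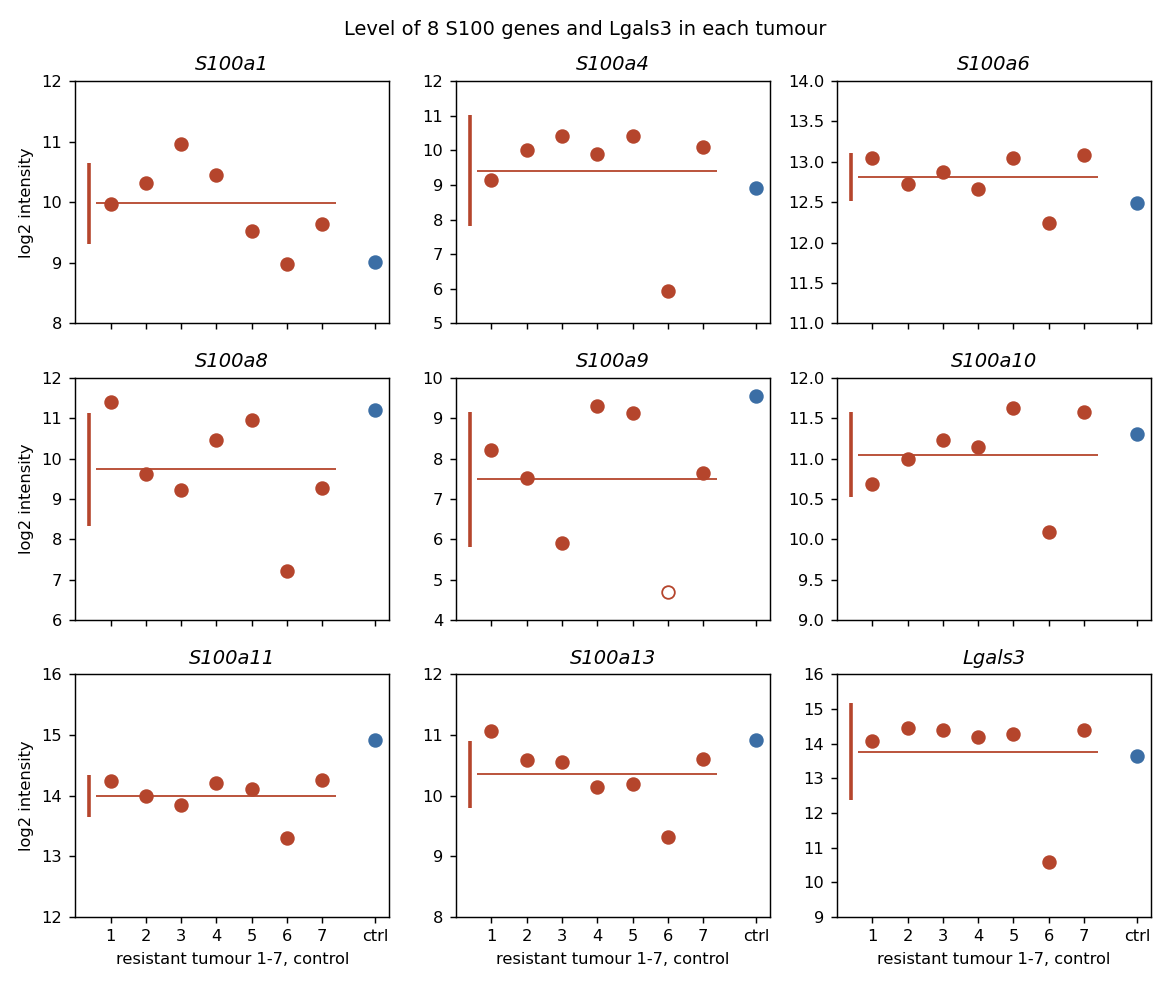
Log2 intensity (vertical axis, scaled per gene and not comparable between genes) of 8 S100 genes and Lgals3 in resistant tumours 1 to 7 (red) and the control (blue); the line is the mean of the 7 resistant tumours, the bar its SD, and the open circle a value that was not detected. In each panel resistant tumour 6 is the lowest point, and S100a4 and Lgals3 show the widest step between tumour 6 and the other tumours.

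Lgals3 was nearly level in 6 resistant tumours and far lower in tumour 6. Its deposited intensity, on a linear scale, was 15336.1, 22938.4, 23108.4, 19752.1, 20150.8, 1595.7 and 22970.2 in resistant tumours 1 to 7, against 14634.5 in the control. On the log2 scale it read 14.09, 14.46, 14.40, 14.19, 14.28, 10.59 and 14.40 in resistant tumours 1 to 7, and 13.65 in the control. Tumour 6 therefore lay 13.5-fold below the median of the other 6 and 8.37-fold below the control, while the other 6 were all above the control by 0.44 to 0.81. The SD over the 7 resistant tumours was 1.41, and 3.9% of all genes had a larger one. Over the 6 tumours without tumour 6 the SD was 0.14, and 91% of genes had a larger one. The mean difference from the control was 0.12 (SE 1.29, n = 7 against 1, limma adjusted p = 0.99). Without tumour 6 it was 0.65 (SE 0.22, limma adjusted p = 0.351). Under median scaling with all 7 tumours it was -0.01, so the direction of the mean depends on the scaling.

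S100a4, which encodes a protein that binds non-muscle myosin and is known for its role in cell motility and metastasis, had the same shape. It read 9.15, 10.02, 10.41, 9.88, 10.41, 5.92 and 10.09 in resistant tumours 1 to 7, against 8.91 in the control. Tumour 6 was 17.5-fold below the median of the other 6 and 7.91-fold below the control. The 6 other tumours all read above the control, by 0.24 to 1.51, although under median scaling 5 of the 6 did. The mean difference was 0.51 (SE 1.46, limma adjusted p = 0.955), and 1.09 without tumour 6 (SE 0.45, limma adjusted p = 0.441). Myh9, the heavy chain of the non-muscle myosin that S100A4 binds, read 12.20 to 12.98 in the resistant tumours and lay below the control in all 7, with a difference of -0.44 (SE 0.31, limma adjusted p = 0.765). It too was lowest in tumour 6, but by 1.29-fold against the median of the other 6. S100A4 is also known as a fibroblast marker. Of 11 fibroblast genes, 10 were detected, and 5 of these were lowest in tumour 6, where 23.4% of all genes were. Their summed linear level was 9325 in tumour 6, from 15906 to 47005 in the other 6 and 41036 in the control, with all 10 genes detected in every tumour. Dcn was the brightest of these 10 genes in every tumour but resistant tumours 1 and 6, so the sum leans on that gene. Dcn read 11.11 in tumour 6, 12.30 to 14.64 in the other 6 and 13.68 in the control. The collagen gene Col1a1 read 11.55 in tumour 6, 10.07 to 13.33 in the other 6 and 12.67 in the control. Col3a1 was lowest in tumour 6, at 7.68 against 8.56 to 10.25 in the other 6. Col1a2 was not, at 8.04 against 6.69 to 10.003. Dcn, Pdgfra, Thy1 and Fap were picked after their values were seen. The growth factor receptor gene Pdgfra read 9.79 in tumour 6, 12.29 to 12.75 in the other 6 and 12.57 in the control. Thy1 and Fap each lay inside their range in the other 6. Thy1 read 10.995 in tumour 6, 9.328 to 11.795 in the other 6 and 13.426 in the control. Fap read 7.80 in tumour 6, 5.99 to 8.32 in the other 6 and 6.19 in the control. The part of fibroblast RNA in the S100a4 level was not tested.

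Galectin 3 is also the macrophage antigen Mac-2, so macrophage genes were set beside it. Of 15 genes listed, 12 had a probe, and all 12 were detected in every tumour. Their summed linear level was 15403 to 25425 in the resistant tumours, with 25143 in tumour 6, and 10943 in the control. The sum was thus not low in tumour 6, and 2 of the 12 genes were lowest there, where 23.4% of all genes were. Adgre1, a macrophage surface antigen, read 8.95 in tumour 6, 8.99 to 9.67 in the other 6 and 8.30 in the control. Cd68 and Csf1r have no probe. In the other 6 resistant tumours both the macrophage sum and Lgals3 lay above the control, and the part of macrophages in that was not tested.

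S100a8 and S100a9 encode the subunits of calprotectin, which neutrophils and monocytes hold in large amounts and release as a signal that TLR4 and RAGE receive. S100a8 read 11.39, 9.61, 9.21, 10.47, 10.95, 7.20 and 9.27 in resistant tumours 1 to 7, against 11.20 in the control. S100a9 read 8.21, 7.52, 5.91, 9.30, 9.12, 4.69 and 7.64 in resistant tumours 1 to 7, against 9.55 in the control. Both had their highest resistant readings in tumours 1, 4 and 5, their lowest in tumour 6 and the next lowest in tumour 3. The S100a9 reading of tumour 6 was not detected, so that tumour is at least 21.5-fold below the control, while S100a8 differed from it by -4.00 on the log2 scale there. S100a9 lay under the control in all 7 tumours and S100a8 in 6 of 7. The mean differences were -1.47 for S100a8 (SE 1.28, limma adjusted p = 0.818) and -2.07 for S100a9 (SE 1.53, limma adjusted p = 0.782), with an undetected value among the 7 for S100a9. Only 4.04% of genes had a larger SD over the resistant tumours than S100a8, and 2.28% a larger one than S100a9. Without tumour 6 these shares were 7.27% and 3.57%, so the spread does not come from that tumour alone.

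**Figure D2:**
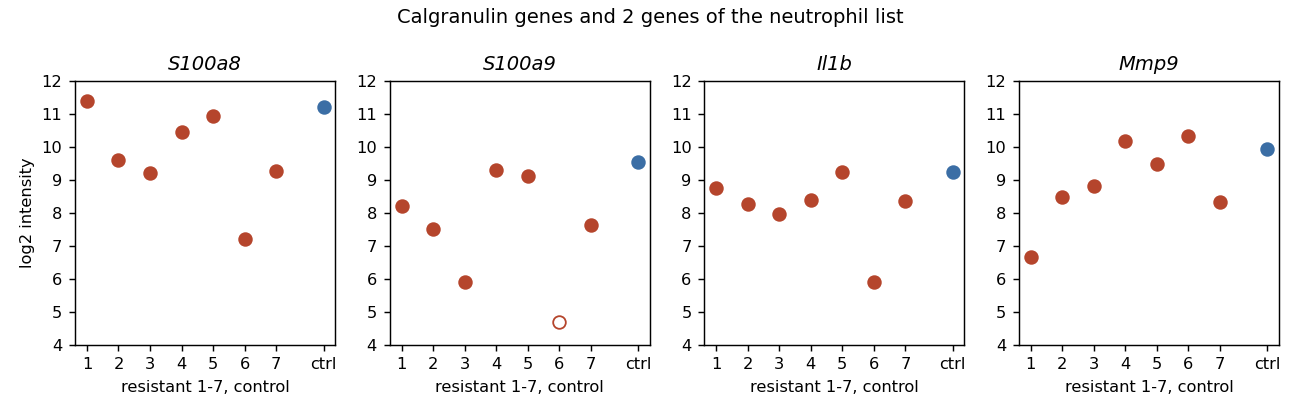
Log2 intensity (vertical axis, 1 scale for all panels, levels not comparable between genes) of S100a8, S100a9, Il1b and Mmp9 in resistant tumours 1 to 7 (red) and the control (blue); the open circle was not detected. Il1b is lowest in tumour 6, as are S100a8 and S100a9, while Mmp9 is highest there.

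Genes of neutrophils were listed as a possible source of calprotectin RNA. Of 15 genes, 14 had a probe and 10 were detected on at least 1 array. Of the defining markers Ly6g has no probe, and Mpo and Elane, granule enzymes, were detected on 2 of 8 arrays each, at most at 5.84 and 5.56. The summed linear level of the 10 genes was 979 to 1948 in the resistant tumours, with 1706 in tumour 6, and 2076 in the control. Mmp9 gave most of the sum in tumour 6. Without Mmp9, left out after its values were seen, the sum was 419 in tumour 6, the lowest of the 8 tumours. It was 654 to 1244 in the other 6 and 1097 in the control. Il1b was the brightest of these 9 genes in every tumour but tumour 6, so the low sum leans on that gene. Ltf, Lcn2 and Prtn3, also picked after their values were seen, read 6.06, 6.28 and 5.86 in tumour 6. Each lay inside its range in the other 6, at 4.72 to 6.26, 4.58 to 8.73 and 5.06 to 6.59. Of the 10 genes, 4 were lowest in tumour 6 and 1 was highest there, where 2444 and 2163 of all 10461 genes were. Among the 4 lowest, Retnlg and Cxcr2 read 4.37 and 4.43 there, under the array's lowest detected signal of 5.12. Each was detected on 2 of 8 arrays, so their rank in tumour 6 is not a measured one. The 3 genes given next were picked after their values were seen. Il1b, an inflammatory cytokine also made by monocytes, read 5.92 in tumour 6, 7.97 to 9.25 in the other 6 and 9.23 in the control. Csf3r, the granulocyte growth factor receptor, read 5.75 in tumour 6, 6.19 to 6.92 in the other 6 and 7.43 in the control. Mmp9, a matrix protease of neutrophils and other cells, read 10.33 in tumour 6, 6.67 to 10.19 in the other 6 and 9.93 in the control. Keratinocytes also make S100A8 and S100A9, and of 13 keratinocyte genes 2 were detected. Krt5, Krt14 and Krt1 were detected on 0 of 8 arrays and Trp63 on 1. Krt10 was detected on all 8, at 9.59 in tumour 6, 8.03 to 9.62 in the other 6 and 8.62 in the control. Of the receptors, Tlr4 read 6.89 to 7.84 in the resistant tumours and 7.30 in the control (limma adjusted p = 0.986). Ager, which encodes RAGE, read 5.17 to 5.90 in the resistant tumours, where 5 of 7 were detected, and 5.34 in the control (limma adjusted p = 0.908). The part of myeloid cells in the calprotectin levels was not tested.

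S100a1 lay above the control in 6 of 7 tumours. Its protein is known in heart and skeletal muscle, where it binds the ryanodine receptor and the calcium pump of the sarcoplasmic reticulum. It read 9.97, 10.33, 10.96, 10.45, 9.53, 8.97 and 9.65 in resistant tumours 1 to 7, against 9.02 in the control. Tumours 3 and 4 were highest and tumour 6 equalled the control within 0.04. The mean difference was 0.96 (SE 0.63, limma adjusted p = 0.74). Of 14 muscle genes, 13 were detected, and their summed linear level was 412 to 48808 in the resistant tumours and 528 in the control. That sum was highest in tumour 1, where the muscle actin gene Acta1 read 14.15, and 841 and 412 in tumours 3 and 4, where Acta1 was not detected. Another gene of the list, Tnni2, a troponin subunit picked after its values were seen, was detected on all 8 arrays and read 8.94 and 6.33 in tumours 3 and 4, against 5.61 in the control. The part of muscle RNA in the S100a1 level was not tested. The partner genes Ryr1 and Atp2a2 differed from the control by 0.53 (SE 1.30) and 0.04 (SE 0.44), with limma adjusted p of 0.949 and 0.99.

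S100a13, whose protein takes part in the release of FGF1 and interleukin 1 alpha, begins beside S100a1 on the chromosome, but its highest readings fell in other tumours. It read 11.07, 10.58, 10.55, 10.14, 10.19, 9.32 and 10.60 in resistant tumours 1 to 7, against 10.91 in the control. It lay below the control in 6 of 7 tumours, with a mean difference of -0.56 (SE 0.53, limma adjusted p = 0.836). In tumours 3 and 4, the highest for S100a1, it was -0.36 and -0.77 from the control. Of its cargo genes, Il1a was detected on 0 arrays and Fgf1 on 1. That was resistant tumour 6, in which Fgf1 read 8.50 while S100a13 was at its lowest. A further Fgf1 probe was likewise detected on 1 array, with 5.66 in tumour 6.

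S100a10 and S100a11 encode annexin partners. S100A10 does not bind calcium and is held in a complex with annexin A2 and AHNAK at the membrane, and S100A11 binds annexin A1. S100a11 read 14.24, 13.99, 13.85, 14.21, 14.11, 13.30 and 14.26 in resistant tumours 1 to 7, against 14.93 in the control. All 7 were below the control, as were those of S100a9, so 2 of 9 members lay wholly below it and 0 wholly above. Of all genes, 17% had all 7 tumours below the control and 13.3% had all 7 above. The S100a11 difference was -0.93, or 1.91-fold lower (SE 0.36, limma adjusted p = 0.56). Its unadjusted p of 0.031 was the smallest among the members. The deposited intensity of this probe was 8969.6 to 20919.6 in the resistant tumours, against 31573.1 in the control, where the brightest probe of the control array read 38501.9.

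S100a10 overlapped the control more closely. It read 10.69, 10.99, 11.23, 11.14, 11.62, 10.09 and 11.57 in resistant tumours 1 to 7, against 11.30 in the control, with tumours 5 and 7 above it. The mean difference was -0.25 (SE 0.52, limma adjusted p = 0.932). Anxa2 was almost constant, at 14.58 to 14.82 in the resistant tumours and 14.87 in the control (limma adjusted p = 0.836). Its tumour 6 reading was 1.06-fold below the median of the other 6, where that of S100a10 was 2.14-fold below. Ahnak read 12.44 to 13.09 in the resistant tumours and 12.05 in the control, a difference of 0.61 (SE 0.28, limma adjusted p = 0.619), with all 7 above, and a further Ahnak probe differed by 1.26. Anxa1 read 8.54 to 10.03 in the resistant tumours and 8.93 in the control (limma adjusted p = 0.916).

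S100a6, the gene of calcyclin, which binds annexin A11 and the ubiquitin ligase partner CACYBP, had the smallest SD over the 7 resistant tumours, 0.30, although over the 6 without tumour 6 it was 0.18, above those of Lgals3 (0.14) and S100a11 (0.16). It read 13.05, 12.72, 12.87, 12.66, 13.05, 12.25 and 13.09 in resistant tumours 1 to 7, against 12.50 in the control. The SD over all 7 was exceeded by 60.6% of genes. Its difference was 0.32 (SE 0.33, limma adjusted p = 0.861), with 6 of 7 tumours above the control, and of those 6 only 4 under median scaling. Anxa11 was below the control in all 7 tumours, at 9.40 to 10.93 against 11.78, a difference of -1.34 (SE 0.49, limma adjusted p = 0.537). A further Anxa11 probe, detected on 4 arrays, differed by 0.17. Cacybp read 6.12 to 6.87 in the resistant tumours and 6.91 in the control (limma adjusted p = 0.795).

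Across the comparison of resistant tumours with the control, 0 of 9 members passed limma's test at an adjusted p under 0.05, where 0.22% of all 10461 genes did, 0.00956% higher and 0.21% lower. At an unadjusted p under 0.05 there was 1 member, S100a11, lower, where 5.35% of genes were lower and 2.86% higher. The test had 6 residual degrees of freedom, all from the resistant tumours, so the control's own spread had to be taken from theirs. The median difference over the 9 members was -0.25, against -0.02 over all genes. Leaving out tumour 6 showed a split among the members. S100a1, S100a4, S100a6 and Lgals3 were above the control in all 6 other tumours, where 16.4% of genes were, and S100a9 and S100a11 were below it in all 6, where 20.8% were. The 4 genes that were above the control in all 6 were all below it in tumour 6, a combination found in 3.03% of genes. Their place below it follows from all 9 members being lowest in tumour 6, so it is no separate result. For S100a1 the difference there was only -0.04 on the log2 scale. Under median scaling the first count was 2, S100a1 and Lgals3, and the second 4, with S100a8 and S100a13 added. Without tumour 6 the unadjusted p was 0.00794 for S100a11, 0.0184 for Lgals3 and 0.0435 for S100a4, and the smallest limma adjusted p was 0.295. In that fit 3.91% of all genes were higher and 7.05% lower at an unadjusted p under 0.05.

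**Figure D3:**
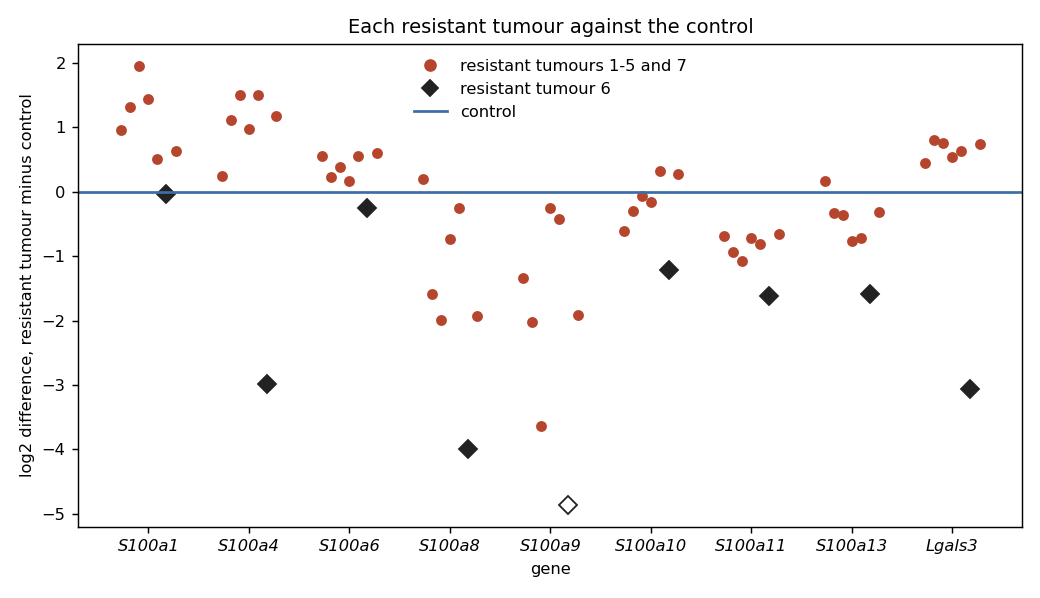
Log2 difference of each resistant tumour from the control (vertical axis) for 9 genes (horizontal axis); circles are resistant tumours 1 to 5 and 7, from left to right by number, diamonds are tumour 6, open where not detected, and the line at 0 is the control. S100a1, S100a4, S100a6 and Lgals3 have all circles above the line and the diamond below it, whereas S100a9 and S100a11 have all points below it.

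Members varied together across tumours mainly through tumour 6. Of 36 pairs of members, 34 had a Pearson coefficient above 0 over the 8 tumours, with a median of 0.60, but 16 of 36 without tumour 6, with a median of -0.14. The members were chosen with earlier results known, and S100a9 was not detected in tumour 6. Permutation p-values over 8 tumours carry that shared low reading and are given as description. At an adjusted p under 0.05, 3 pairs passed over 8 tumours and 0 without tumour 6. By Spearman's coefficient 0 passed in either set. For S100a8 and S100a9 the coefficient was 0.90 over 8 tumours (exact permutation p = 0.00322, adjusted over 36 pairs 0.0387), and Spearman's was 0.81 (exact permutation p = 0.0218, adjusted 0.312). Without tumours 1 and 6, the farthest from the median of S100a8, Pearson's coefficient was again 0.90. Without tumour 6 alone it was 0.78 (exact permutation p = 0.045, adjusted 0.27), and 0.55 when the 2 farthest of the other 7 were left out too. For S100a9 and S100a11 it was 0.85 (exact permutation p = 0.00288, adjusted 0.0387), with Spearman's at 0.79 (exact permutation p = 0.0279, adjusted 0.312). Without tumours 3 and 6, the farthest on S100a9, that pair had 0.57, so the relation rests on those tumours. S100a4 and Lgals3 split into tumour 6 and the rest, so only the other 7 were used. There Pearson's coefficient was 0.86 (exact permutation p = 0.00833, adjusted 0.16) and Spearman's 0.68 (exact permutation p = 0.11, adjusted 0.447). Without their 2 farthest tumours Pearson's coefficient was 0.22. The largest in size over those 7 tumours was negative, at -0.92 for S100a11 and Lgals3 (exact permutation p = 0.0133, adjusted 0.16). It was -0.57 without the 2 farthest. S100a11 also had -0.82 with S100a1 and -0.80 with S100a4. S100a1 and S100a13, which share part of their upstream window, had -0.29 over the same 7 tumours (exact permutation p = 0.534, adjusted 0.704).

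The S100a genes described here lie in a cluster on mouse chromosome 3, and not all S100 genes detected in that cluster read low in tumour 6. S100a16, between S100a14 and S100a3 in the gene order and of little known function, read 8.67, 6.26, 7.47, 7.14, 6.92, 8.41 and 6.18 in resistant tumours 1 to 7, against 7.81 in the control. Its tumour 6 reading was 1.38 above the median of the other 6, where S100a4 differed by -4.13 and the near neighbour S100a6 by -0.71. S100a3 and S100a5, which flank the S100a2 and S100a4 stretch, were detected on 5 and 4 arrays. S100a5 read 5.29, 5.52 and 5.68 in resistant tumours 1, 3 and 5, was not detected in the other 4 and read 6.69 in the control (difference -1.43, SE 0.33, limma adjusted p = 0.261). S100a3 differed by -1.38 (SE 0.46, limma adjusted p = 0.456) and was not detected in 3 resistant tumours. S100a14 differed by -0.30 (SE 0.32, limma adjusted p = 0.87). Of the 9 other S100 genes listed, 7 had a probe and 5 were detected. Of these 5, 0 passed in either direction, with a median difference of -0.51. S100b, the marker used in the clinic, was detected on 0 of 8 arrays, as was S100g.

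**Figure D4:**
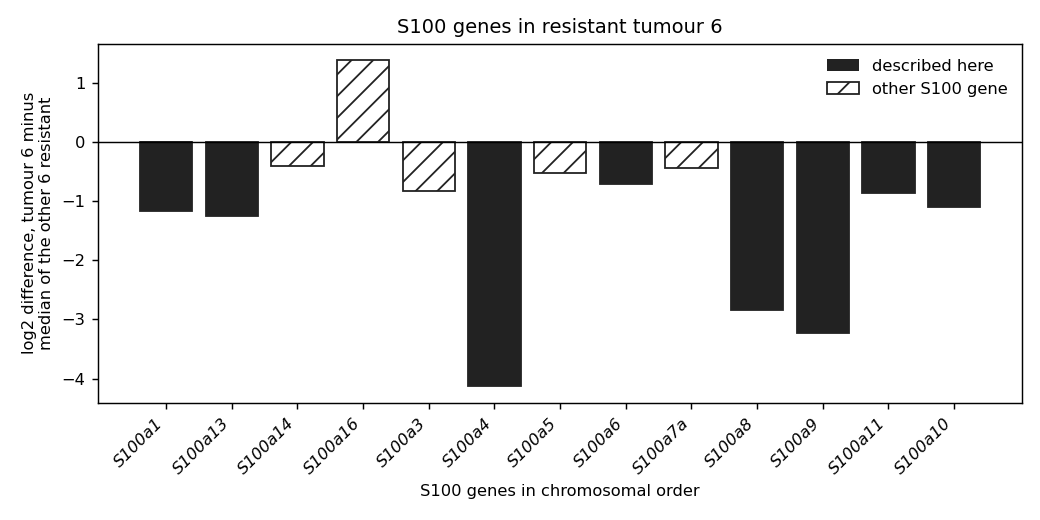
Log2 difference of resistant tumour 6 from the median of the other 6 resistant tumours (vertical axis) for the S100 genes of the cluster in chromosomal order (horizontal axis, distances not to scale); filled bars are the genes described here and hatched bars other S100 genes. S100a16 is at 1.38, S100a4 is at -4.13, and the tumour 6 values of S100a3, S100a5, S100a7a and S100a9 were not detected.

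No other galectin was lowest in tumour 6, though Lgals3bp was. Lgals1, the most studied relative, read 14.29 to 14.75 in the resistant tumours, with 14.44 in tumour 6, and 14.50 in the control (limma adjusted p = 0.982). Lgals9 read 7.52 in tumour 6, 7.47 to 9.01 in the other 6 and 8.04 in the control. A further Lgals9 probe, detected on all 8 arrays, read 7.30 in tumour 6, 7.20 to 8.71 in the other 6 and 7.17 in the control. The side of the control on which tumour 6 lay thus depends on the probe. Lgals4 was highest in tumour 6, at 7.59, against 6.07 to 6.56 in the other 6 and 5.65 in the control (difference 0.83, SE 0.50, limma adjusted p = 0.72). Lgals7 differed by -1.59 (SE 0.62, limma adjusted p = 0.562) and was detected in 4 of the 7 resistant tumours. Lgals3bp, a secreted glycoprotein that galectin 3 binds, read 10.21 in tumour 6, 10.58 to 12.69 in the other 6 and 10.66 in the control (difference 0.80, SE 0.79, limma adjusted p = 0.846). Of 9 genes in this list, 8 had a probe, 7 were detected and 0 passed, with a median difference of 0.20.

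Genes for known partners showed no call either. Of 22 partners and receptors of S100 proteins, 17 were detected, 0 passed, and the median difference was 0.23. Beside Anxa11 and Ahnak, the smallest p was that of Cd33, a receptor to which S100A9 binds in humans, with a difference of 0.98 (SE 0.45, limma adjusted p = 0.619). Of 10 partners of galectin 3, 10 were detected and 0 passed, with a median difference of -0.05. Cd44, the hyaluronan receptor, differed by -0.99 (SE 0.38, limma adjusted p = 0.558) and by -0.11 in a probe detected on 4 arrays. The integrin gene Itgb1 differed by -0.88 (SE 0.40, limma adjusted p = 0.619) and Mgat5, detected on 1 array, by -0.44 (SE 0.22, limma adjusted p = 0.647).

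Genes with the most similar pattern were sought among 7289 genes detected on all 8 arrays, by Pearson's coefficient over the 8 tumours. These are the highest of many coefficients, so they describe the data and carry no test. Each gene named was, like its member, lowest in tumour 6, so the coefficients over 8 tumours draw in part on that tumour. Lgals3 was most like Kif4, at 0.99, and 0.91 without tumour 6. Spdl1 and Anln followed, at 0.98 each over 8 tumours and 0.74 and 0.57 without tumour 6. Their Spearman coefficients over 8 tumours were 0.60 and 0.79. S100a4 was most like Gfer, at 0.98 and 0.91 without tumour 6, followed by Anln and Snrpc. S100a8 was most like Gm5801, at 0.98 and 0.95 without tumour 6, followed by H3c1 and Rtel1. For S100a9 the nearest was Mars2, at 0.95, then Nasp and Cenps. S100a11 was most like Nop58, at 0.98 and 0.99 without tumour 6, then Slk and Tubb6. S100a1 was nearest to Fzr1, at 0.96, then Cdk1 and Nudt2. S100a6 was nearest to Ncapd2, at 0.98, then Mad2l2 and Pex11g. S100a10 was nearest to Mrps22, at 0.97, then Nln and Rhou. S100a13 was nearest to Myd88, at 0.96, then Lbr and S1pr2.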

How the data were processed

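Biotin-labelled RNA of each tumour was read on 1 Illumina bead array. The authors deposited linear probe intensity beside detection p-values, and a separate table of normalized intensity. GenomeStudio is named in the submitters' processing notes, with no version. The first table's lowest intensity is 46.7 and its array medians run from 86.3 to 94.8, so it was taken as neither background-subtracted nor normalized. The authors' normalized intensity ranks probes as the first table does (Spearman coefficient 0.999998), with its method not given in the sources used.

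Groups came from sample titles, 7 resistant and 1 control. Symbols came from the platform annotation: 23978 probes have 1, 0 have several and 1719 have none, and 23962 were matched by gene ID to RefSeq's table for GRCm38.p6. Intensities were corrected with limma's neqc (offset 16), then quantile normalized and log2 transformed. Each gene with a probe detected (detection p under 0.05) on at least 1 array took the values of whichever probe had the highest mean, and 14190 of 15067 detected probes are named. The 7 resistant tumours were set against the control in limma (lmFit, eBayes), two-sided, with Benjamini-Hochberg adjustment over 10461 genes. The smallest exact permutation p for 7 against 1 would be 0.125, so none is given for that comparison. Folds against an undetected value use the array's lowest detected signal and are given as "at least". Correlations were tested by exact two-sided permutation. The fit was checked on simulated data. R 4.3.3 and limma 3.58.1 were used.

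Members and lists were chosen with earlier results of these data known. Genes named beside them are direct partners, the 3 smallest p-values of each list, the first 3 markers of a cell type list and the 3 most similar genes per member. Il1b, Csf3r, Mmp9, Ltf, Lcn2, Prtn3, Retnlg, Cxcr2, Krt10, Trp63, Ednrb, Slc45a2, Pmel, Tnni2, Dcn, Pdgfra, Thy1, Fap, S100a16, Lgals1 and Lgals9 were named outside that rule or after their values were seen. No chip or array position is named in the columns, so no batch was tested. Probe and protein sequences were not used here.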

Additional observations from a re-analysis of the deposited data

Results flagged for a closer look

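In 3 of the 9 members resistant tumour 6 stood apart below the other 6 resistant tumours. The gap to the nearest tumour, as a share of the range of all 7, was 0.905 for Lgals3, 0.719 for S100a4 and 0.573 for S100a11. Each was above Dixon's 95% critical value for that number of samples, used here as a cut-off and not as a test. Lgals3 read 10.59 in tumour 6, 14.09 to 14.46 in the other 6 and 13.65 in the control. S100a4 read 5.92 in tumour 6, 9.15 to 10.41 in the other 6 and 8.91 in the control. S100a11 read 13.30 in tumour 6, 13.85 to 14.26 in the other 6 and 14.93 in the control. The nominal rate of 1 in 20 does not hold for members chosen with these data known. Of all 10461 genes, 13.1% had 1 resistant tumour apart on either side and 2.23% had tumour 6 apart below the rest.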

How the results depend on the processing

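Under 8 planned settings for processing and 7 that leave out 1 resistant tumour each, 0 of 9 members passed in any, and every member kept the sign of its difference but 1. Lgals3 turned to -0.00944 under median scaling, where the median of all genes was -0.20; relative to that median Lgals3 was at 0.19. S100a9 drops out when detection on all 8 arrays is asked for, so it has no value there. All 9 members were lowest in tumour 6 without background correction, under median scaling and with the deposited normalized values. Under median scaling the members above the control in the 6 tumours other than 6 numbered 2 and those below it 4, in place of 4 and 2. With tumour 6 left out, a setting chosen after seeing the data, 4 members were above the control in every tumour, in place of 0. The number of genes called lower, 22, was 8 without background correction and with the deposited normalized values, 35 with no detection filter and 1 with detection on all 8 arrays. The number called higher, 1, was 4 with no detection filter and 3 with a trended, robust variance. Leaving out each tumour in turn gave 1 to 8 genes called higher and 5 to 50 lower. No paired analysis was possible, with 1 control tumour and no match to a resistant tumour stated in the labels. The number of arrays, with 1 control, limits what can be called, and S100a9 in tumour 6 lies under the detection limit.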
